A study of Mus musculus with 14 samples.

Results

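The dystrophin complex genes are 9 genes of the spinal cord transcriptome that were chosen by symbol: Dmd, Utrn, Dtna, Dtnb, Sntb1, Sntb2, Dag1, Sgce and Sgcb. All 9 were found among the 19215 genes of the RNA-seq tables. By the Entrez number in the exon names, 13 of the 13189 cassette exons in the splicing tables belonged to them, in 5 of the 9 genes. Utrn, Sntb1, Sntb2 and Sgcb had no cassette exon in the tables. The study asked how the splicing factor NOVA binds RNA in motoneurons (MNs) compared with the whole spinal cord (WSC) of the mouse, and it combined RNA-seq with HITS-CLIP, in which RNA that was crosslinked to a protein by UV light is precipitated with that protein and sequenced.

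The RNA level and the splicing of the 9 genes were measured in 2 poly(A)-selected WSC RNA-seq libraries. They came from a male and a female mouse of the B6/SJL background, 12 weeks old, both of the genotype Tg(SOD1)2Gur/J, which carries a human wild-type SOD1 transgene, so both libraries share it. Each sex had 1 library, so what separates them separates libraries and not the sexes. NOVA binding was measured in 12 HITS-CLIP libraries from 3-month-old mice of the C57BL/6 background. Of these, 4 came from the transgenic line Chat:GFP-Nova #6 (Chat6) and 4 from the line Chat:GFP-Nova #17 (Chat17), both hemizygous, and these 8 libraries are called MN here. In both lines a bacterial artificial chromosome with the promoter of the motoneuron gene Chat drives GFP-NOVA, each library was made from pooled spinal cords, and anti-GFP antibodies were used. The 4 WSC libraries came from wild-type mice, a single mouse each by the methods, and anti-Nova serum was used. By the paper, the tagged protein is the long isoform of NOVA2, whereas endogenous NOVA1 and NOVA2 were precipitated from WSC. MN and WSC libraries therefore differed in cell type, form of NOVA, antibody, transgene and pooling, which cannot be told apart. They also differed in the 5′ barcode, which by the labels had a short form in 4 of the 8 MN libraries and a long form in the other 4 and in all 4 WSC libraries.

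Dystrophin, the product of Dmd, is a large cytoplasmic protein that connects the actin cytoskeleton to a group of proteins in the cell membrane. Utrophin (Utrn) is its close relative. Dystroglycan (Dag1) spans the membrane and binds laminin and other ligands of the extracellular matrix through its outer subunit. The sarcoglycans (among them Sgce and Sgcb) sit beside it in the membrane, and the dystrobrevins (Dtna and Dtnb) and syntrophins (Sntb1 and Sntb2) form a cytoplasmic scaffold on the dystrophin side. The complex is best known from skeletal muscle. In the central nervous system it is found at glial endfeet, where it holds the water channel AQP4, and at neuronal synapses.

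Of the 13 cassette exons, 7 had a junction coverage of 10 or more reads per library with a mean inclusion rate from 10% to 90%, or were called between the libraries. The sequences of those that may be printed here are shown with their splice sites, because the lengths and the splice sites decide what the inclusion rates below refer to. The exon is in capitals and the 40 nt of intron on each side are in lower case, 5′ to 3′ on the strand of the gene, in the mm9 build.
Dmd, exon 78 of 79, 32 nt, chrX:82442803-82442914, plus strand: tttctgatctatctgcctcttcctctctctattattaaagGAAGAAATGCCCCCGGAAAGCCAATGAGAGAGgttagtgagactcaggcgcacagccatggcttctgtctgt
Dtnb, 21 nt, chr12:3754056-3754156, plus strand: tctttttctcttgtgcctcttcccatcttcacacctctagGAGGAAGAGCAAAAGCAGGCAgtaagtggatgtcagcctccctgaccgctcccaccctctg
Dtnb, 90 nt, chr12:3773511-3773680, plus strand: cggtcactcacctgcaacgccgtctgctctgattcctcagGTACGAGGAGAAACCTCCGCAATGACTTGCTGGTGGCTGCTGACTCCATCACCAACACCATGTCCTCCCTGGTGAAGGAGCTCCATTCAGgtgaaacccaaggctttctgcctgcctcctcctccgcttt
Sgce, exon 8 of 12, 27 nt, chr6:4640429-4640535, minus strand: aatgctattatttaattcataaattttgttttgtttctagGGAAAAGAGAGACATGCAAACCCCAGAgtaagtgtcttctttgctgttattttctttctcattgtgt
Sgce, 31 nt, chr6:4640425-4640535, minus strand: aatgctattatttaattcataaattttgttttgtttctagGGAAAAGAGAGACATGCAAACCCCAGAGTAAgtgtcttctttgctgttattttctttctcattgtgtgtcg
All 13 exons were placed on mm9 from the offsets in their names. For each gene, the starting point was the one that put most offsets on annotated exon ends. So placed, all 13 were preceded by AG and followed by GT, and 11 of the 13 matched an annotated exon at both ends. The placement favours such matches, so they are not a separate check of it. The 27-nt and 31-nt exons of Sgce begin at the same base and differ in the 5′ splice site, which lies 4 nt farther downstream in the longer form.

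In WSC the 9 genes spanned from 1.10 to 23.4 RPKM in mean RNA level, a read number scaled to the exon length of the gene and to the depth of the library. The cytoplasmic scaffold held both ends of this range, with Dtna at the top and Sntb2 at the bottom, and Utrn was higher than Dmd in both libraries. All 9 were at a mean RPKM of 1 or more, as were 11940 of the 19215 genes. Bulk tissue was measured, so fewer cells of a type and less RNA per cell cannot be told apart.

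Of the dystrophin family, Utrn had 11.0 RPKM in the male and 11.3 RPKM in the female library (mean 11.1 ± 0.20, SD, n = 2). Dmd had 4.21 and 3.92 RPKM (4.07 ± 0.21). The lower library of Utrn was above the higher library of Dmd. Per gene these levels rested on 11424 and 10679 reads for Utrn and on 6265 and 5312 reads for Dmd.

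Of the dystrobrevins, Dtna (chr18:23573916-23818215, plus strand) had the highest level of the 9 genes, 23.6 RPKM in the male and 23.1 RPKM in the female library (23.4 ± 0.34), and 83.8% of all genes had a lower mean. Dtnb (chr12:3572381-3781796, plus strand), which encodes the beta form, had 5.25 and 5.13 RPKM (5.19 ± 0.08). The levels of the 2 dystrobrevin genes did not overlap. Both syntrophin genes were low, with Sntb2 (chr8:109459650-109538092, plus strand) at 1.12 and 1.08 RPKM (1.10 ± 0.03) and Sntb1 (chr15:55470398-55738504, minus strand) at 1.30 and 2.05 RPKM (1.67 ± 0.52).

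Of the genes for membrane proteins, Sgce (chr6:4624350-4697204, minus strand) had 18.5 and 18.01 RPKM (18.2 ± 0.33). Sgcb (chr5:74023988-74038983, minus strand) had 16.9 and 19.3 RPKM (18.1 ± 1.75), and Dag1 (chr9:108108286-108166255, minus strand) had 18.002 and 14.1 RPKM (16.0 ± 2.77). These neighbours in the order of levels overlapped, so their order is not resolved by 2 libraries.

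**Figure D1:**
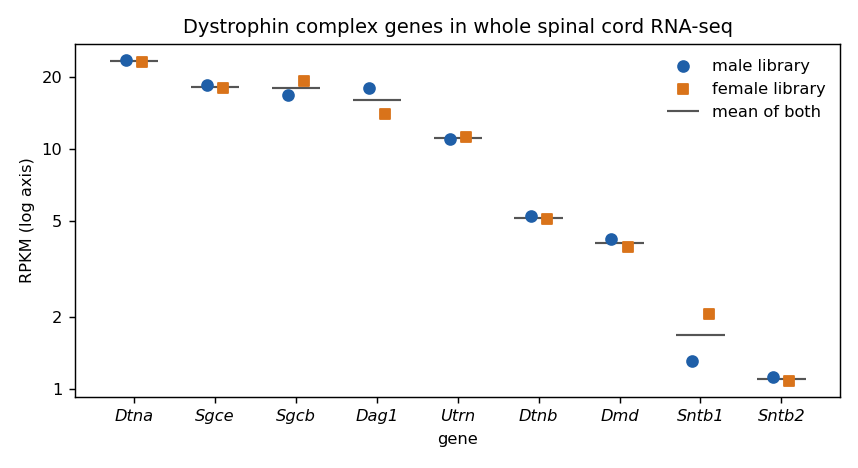
RPKM of the 9 genes in the male (circles) and the female (squares) WSC RNA-seq library, on a log axis, ordered by the mean of both (line). Dtna is highest at a mean of 23.4 RPKM and Sntb2 lowest at 1.10 RPKM, and the Sntb1 points are the farthest apart.

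Between the 2 libraries, 1 of the 9 genes, Sntb1, differed by 1.5-fold or more on the log2(RPKM + 0.1) scale, against 3.49% of the 11940 genes at a mean RPKM of 1 or more. The Sntb1 level was 1.53-fold higher in the female library, from 202 and 289 reads. The value fell to a log2 difference of -0.40 with a pseudocount of 1, which is under 1.5-fold. Dag1, the next in size, was 1.28-fold higher in the male library. The other 7 genes differed by 1.02-fold to 1.15-fold. No test was made with 1 library of each kind.

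The other genes of the complex and of the pathway around it were read in the same libraries by role. Drp2, the remaining member of the dystrophin family, had a mean of 8.06 RPKM, between Utrn and Dmd. Of the 3 other syntrophin genes, 2 reached a mean of 1 RPKM, and Sntg2, a gamma form, was lowest at 0.83 RPKM. Of the 5 other sarcoglycan and sarcospan genes, 2 reached a mean of 1 RPKM, Sspn (sarcospan) at 5.89 RPKM and Sgcz (the zeta form) at 1.52 RPKM. Sgca, the alpha form that is typical of striated muscle, was at 0.09 RPKM. Among the genes of these lists with a mean of at least 1 RPKM, Sspn alone was past 1.5-fold between the libraries, at 4.17 RPKM in the male and 7.61 RPKM in the female library.

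Of 6 genes whose products are bound or linked to the complex, the potassium channel gene Kcnj10 (262 RPKM) and the water channel gene Aqp4 (144 RPKM) were highest. Prx (periaxin) was at 0.11 RPKM, and Cav3, a muscle caveolin, had no read in either library. Among 10 genes for ligands of dystroglycan, the neurexin gene Nrxn3 was highest at 27.5 RPKM, Egflam (pikachurin) was at 0.77 RPKM and the laminin chain gene Lama4 was lowest at 0.32 RPKM. A mean of 1 RPKM was reached by 6 of these 10 genes. All 17 genes for the glycosylation of dystroglycan were found, 3 of them under older symbols, and 16 reached a mean of 1 RPKM. B3gnt1 was highest at 32.5 RPKM, and Gyltl1b, at 0.06 RPKM, was the gene under 1 RPKM.

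Markers of other cells place these levels. The astrocyte marker Gfap had a mean of 500 RPKM and the motoneuron marker Chat 9.79 RPKM. None of the 8 skeletal muscle markers reached a mean of 1 RPKM, and their levels summed to 1.18 RPKM in the male and 1.73 RPKM in the female library. The 3 Schwann cell markers summed to 0.45 and 0.58 RPKM. The 3 blood markers summed to 96.5 RPKM in the male and 39.3 RPKM in the female library, and the 6 motoneuron markers to 84.0 and 116 RPKM. The part of these differences in the values of the 9 genes was not tested.

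The inclusion rate of a cassette exon is the mean of the reads on its upstream and its downstream inclusion junction, as a percentage of its sum with the reads that join the flanking exons directly. All 13 exons of the 5 genes were covered, by 19 to 247 junction reads in the male and 17 to 234 in the female library. The mean rate was from 10% to 90% for 7 of the 13, against 27.4% of all 9396 covered exons, above 90% for 5 and below 10% for 1. The 7 include the 31-nt form of Sgce and the 21-nt exon of Dtna, whose downstream junctions had no read. They also include the 222-nt exon of Dtna, close to the limit at 10.3%. Short exons prevailed, with a median of 41 nt against 103 nt over all covered exons, and 8 of the 13 had a length that is a multiple of 3, against 46.3% of all covered exons.

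Dmd exon 78, whose skipping shifts the reading frame and so changes the C-terminal end of dystrophin, was mostly included. The rate was 91.9% for the male (78.7 to 97.2%, the 95% interval by the method of Wilson) and 85.7% for the female (70.6 to 93.7%), with a mean of 88.8% ± 4.37 (SD, n = 2). The exon was skipped in 3 and 5 junction reads, and the intervals, which cover counting error only, overlapped.

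The 27-nt exon of Sgce, exon 8 in the annotation, was included at 73.9% (66.2 to 80.5%) in the male and 77.9% (70.1 to 84.2%) in the female library. It adds no frame shift. Reads on its downstream junction numbered 94 and 95, whereas the 31-nt form, which shares the upstream and the skipping junction with it, had no read on its own downstream junction in either library. The rate of 61.1% and 65.5% computed for the 31-nt form thus rests on upstream junction reads that it shares with the shorter exon.

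In Dtnb, the 21-nt exon was included at 90.1% (80.0 to 95.4%) and 88.0% (74.7 to 94.7%). The 90-nt exon of Dtnb, measured against direct joining of its neighbours, had a rate of 7.69% (2.14 to 24.1%) in the male and 24.3% (10.4 to 47.1%) in the female library. Its intervals were wide and overlapped, because the rates rested on 28 and 23 junction reads. Its upstream junction had 3 and 9 reads, and its downstream junction, which passes over the 41-nt exon, had 1 and 0. The 6 and 1 reads that join the 90-nt exon to the 41-nt exon are left out of its rates. The rates of the 90-nt exon also depended on the measure. The authors' inclusion and skipping counts, which include reads in the exon itself, gave 35.1% and 53.3%. Downstream of it, the 41-nt exon had 94.7% and 100%, and the 36-nt exon 100% in both libraries. Both rates were measured from the 90-nt exon onward. The 24 and 14 reads that skip the 90-nt exon also pass over the 41-nt exon, and the rate of the 41-nt exon leaves them out. The upstream junction of the 41-nt exon had 6 and 1 reads and its downstream junction 30 and 18. The upstream junction of the 36-nt exon had 1 and 0 reads.

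**Figure D2:**
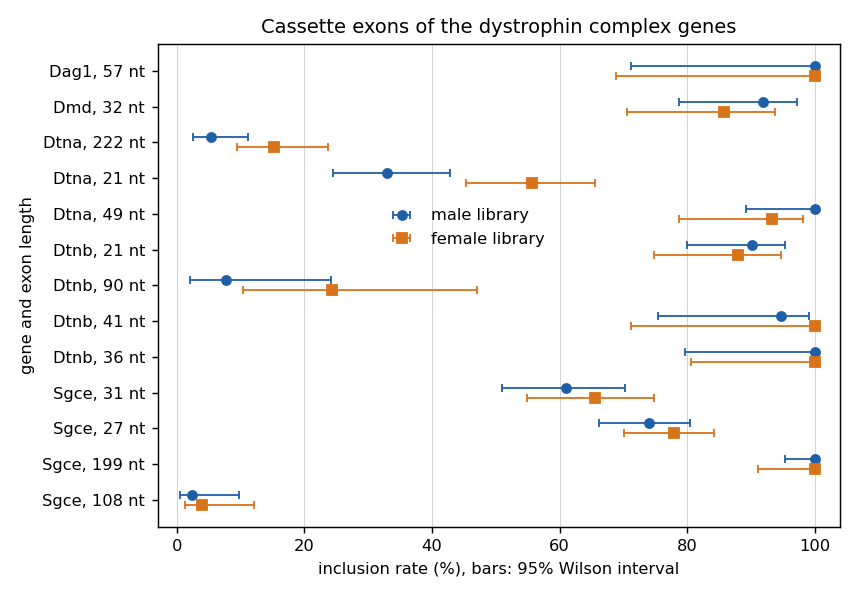
Inclusion rate in percent of the 13 cassette exons, named by gene and length, in the male (circles) and the female (squares) library, with 95% Wilson intervals on the junction reads. The intervals of both libraries overlap for 12 of the exons, and the 21-nt exon of Dtna stands apart with 33.0% and 55.7%. The rate of that exon rests on upstream junction reads that an annotated alternative last exon shares.

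Dtna, the gene for alpha-dystrobrevin on chromosome 18 of mm9, held both exons of the group that were called between the libraries. With the authors' inclusion and skipping counts and a two-sided Fisher's exact test, 2 of the 13 exons had a Benjamini-Hochberg adjusted p of at most 0.1 over all covered exons, against 4.26% of 9396 exons. This p treats reads as independent, covers counting error only and compares 1 library with 1 library. The 21-nt exon (chr18:23791719-23791739) had a rate of 33.0% (24.5 to 42.8%) in the male and 55.7% (45.3 to 65.6%) in the female library (Fisher's exact test, adjusted p = 0.059). The inclusion junction reads behind this rate are all on the upstream junction, which an alternative last exon described below shares. The 222-nt exon (chr18:23655983-23656204), which is not in the annotation used here, had 5.36% (2.48 to 11.2%) and 15.3% (9.50 to 23.7%), with an adjusted p of 0.0608 in the same Fisher's exact test. The counts behind that p, which include 36 and 48 reads in the exon itself, gave 31.2% and 48.4%, so its rate depended on the measure. Its upstream junction had 0 and 3 reads and its downstream junction 12 and 27, so the junction rate rests mainly on the downstream side. In both, the female library was higher. With junction reads alone, 0 of the 13 exons were called by Fisher's exact test (adjusted p = 0.123 and 0.420), against 1.30% of all covered exons, and 2 of the 13 had an unadjusted p under 0.05. The remaining exon of Dtna, of 49 nt near the end of the gene, had 100% and 93.3%.

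The 21-nt exon of Dtna is the start of more than a cassette exon. Its upstream junction had 65 and 98 reads, the skipping junction 66 and 39, and no read in either library joined it to the downstream exon of the event. In the annotation, 1 coding transcript ends in an exon that begins at the same base and runs on for 1195 nt to position 23792913. Reads on the upstream junction can come from the 21-nt exon or from this alternative last exon, and the count on that junction does not separate them. Reads in the exon itself numbered 24 and 16, against 0 and 1 in the 21-nt exon of Dtnb. Which form the upstream reads came from was not tested. With both inclusion junctions averaged, the empty junction lowers the rate, and the value from summed junctions was 49.6% in the male and 71.5% in the female library.

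NOVA CLIP tags were present on all 9 genes. They numbered 1379 in MN and 11417 in WSC on Dmd, and 12 and 211 on Sntb1. MN libraries held 65961 to 871804 tags and WSC libraries 2213104 to 6095995, so MN values carry the larger counting error. Of the 9 genes, 6 passed the filter on low tag numbers and were compared between the 8 MN and the 4 WSC libraries with edgeR's quasi-likelihood test. Utrn and Dtna had more tags in MN at an FDR of at most 0.01, and the other 4 did not pass. These 2 of 6 stand against 57.2% of the 4536 genes tested, and against 28.1% that were higher in MN. In the same fit Chat was higher in MN (log2 fold change 3.08 ± 0.13, SE), and the astrocyte gene Gfap was lower (-0.75 ± 0.18). The MN mice also carry the transgene with the Chat promoter, and its part in the Chat tags was not tested.

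On a scale of CPM, which are tags scaled to the TMM-adjusted size of the library, Utrn had from 220 to 704 CPM in the 8 MN libraries, with a median of 526, and it had 349, 321, 305 and 328 in the 4 WSC libraries. Of the MN libraries 7 were above all WSC libraries and 1, Chat17 replicate 1 with 10 tags on the gene, was below them. The log2 fold change was 0.74 ± 0.12 (SE; edgeR, adjusted p = 5.33e-06). Utrn was called higher under all 23 alternatives tried, at log2 fold changes from 0.50 to 0.95. With the MN libraries of the long barcode alone it was 0.83 for Utrn and 0.46 for Dtna, and both were called (edgeR, adjusted p = 2.73e-08 and 0.000152).

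Dtna had from 646 to 976 CPM in MN (median 773) and 556, 576, 583 and 620 in the 4 WSC libraries. All 8 MN libraries were above the WSC libraries. The log2 fold change was 0.41 ± 0.09 (SE; edgeR, adjusted p = 0.000425). The call was lost with intronic tags alone (-0.05, adjusted p = 0.714), without the filter on low tag numbers (0.17, adjusted p = 0.301) and with the line Chat17 alone (0.36, adjusted p = 0.0364).

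Sgce had from 30.0 to 99.3 CPM in MN and from 32.5 to 39.9 in WSC, with 7 of the 8 MN libraries above the WSC libraries, and it missed the threshold (0.56 ± 0.20; edgeR, adjusted p = 0.0151). It passed with the gene region extended by 10 kb (0.60, adjusted p = 0.00884) and without Chat6 replicate 1 (0.60, adjusted p = 0.00966). Sgcb had from 22.0 to 90.1 CPM in MN and from 69.9 to 84.6 in WSC (-0.42 ± 0.17, adjusted p = 0.0335). Dmd had from 809 to 1109 in MN and from 785 to 907 in WSC (0.17 ± 0.10, adjusted p = 0.129), and Dtnb from 22.0 to 199.985 in MN and from 102 to 107 in WSC (0.21 ± 0.16, adjusted p = 0.265). For Sgcb, Dmd and Dtnb the groups overlapped. The 3 genes under the filter had 0 to 27 tags in an MN library, with 12 tags in all on Sntb1, 43 on Sntb2 and 50 on Dag1.

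**Figure D3:**
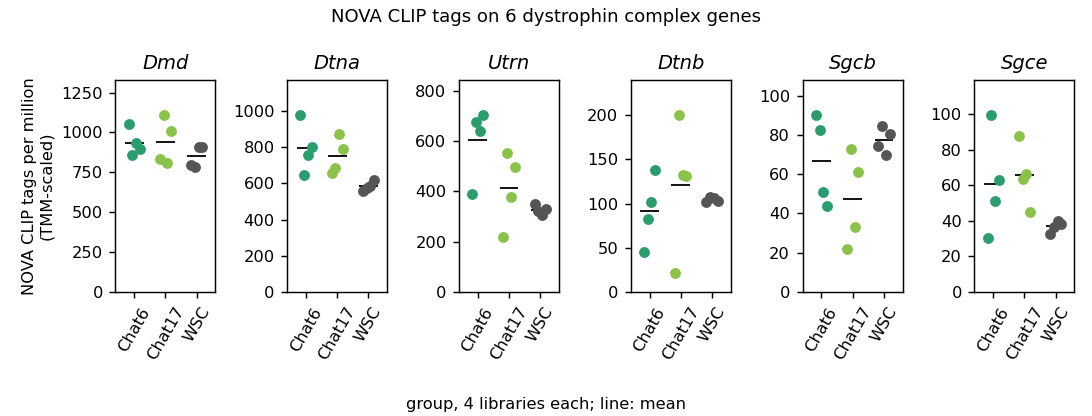
NOVA CLIP level in CPM of the 6 tested genes in the Chat6, Chat17 and WSC libraries, 4 points per group with their mean as a line and each axis starting at 0. For Dtna all MN points lie above the WSC points, and for Utrn 7 of 8 do.

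Between the 2 transgenic lines, 4 of the genes could be tested and 0 were called by edgeR, as were 0 of all 2059 genes tested (0%). An unadjusted p under 0.05 was found for 72 of the 2059 genes, and among the 4 for Utrn alone. For Utrn the difference of Chat6 minus Chat17 was 0.44 ± 0.21 on the log2 scale (edgeR, adjusted p = 0.999). The mean levels were 603 ± 144 and 413 ± 148 CPM (SD, n = 4). The differences of Dmd, Dtna and Dtnb were -0.06 ± 0.15, 0.05 ± 0.17 and -0.42 ± 0.34.

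The part of the gene in which the tags lay changed the comparison. Exonic tags made up 33.4 to 46.4% of the gene tags of an MN library and 60.9 to 66.2% of those of a WSC library, so exonic and intronic tags were also tested separately, each relative to the tags of its kind. With exonic tags, 3 of the 4 members tested were higher in MN, namely Utrn (0.83 ± 0.13), Dtna (0.62 ± 0.11) and Dmd (0.59 ± 0.16; edgeR, adjusted p = 0.00327), against 24.0% of 2249 genes that were higher and 48.4% called in either direction, and Sgcb was not called (0.25 ± 0.19, adjusted p = 0.252). With intronic tags, 2 of the 5 members tested were called, Utrn higher (0.64 ± 0.12) and Dmd lower in MN (-0.63 ± 0.08; edgeR, adjusted p = 1.27e-07), against 27.0% of 2714 genes called in either direction. As a share of the gene's own tags, exonic tags were lower in MN for Dmd (11.2% against 14.6% in WSC). The same held for Dtna (33.1% against 49.0%) and Utrn (39.6% against 64.0%). The fold changes thus show no move of tags from introns to exons within these genes.

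**Figure D4:**
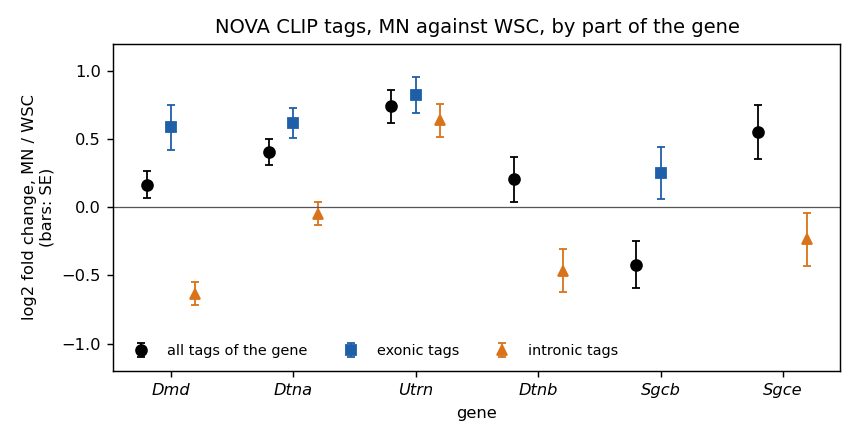
Log2 fold change of NOVA CLIP tags, MN against WSC, of 6 genes for all tags (circles), exonic tags (squares) and intronic tags (triangles), with SE bars, each relative to the tags of its kind in the library. Utrn is above 0 in each, and Dmd is at 0.59 with exonic and at -0.63 with intronic tags. These values are not shares of the gene's own tags.

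Dmd, with the longest gene of the group (chrX:80194209-82451480, plus strand), was mostly bound in introns. Exonic tags made up 7.89 to 19.2% of its tags in an MN library (median 11.7%) and 13.5 to 16.0% in a WSC library (median 15.0%). Besides the full-length transcript, 3 annotated coding transcripts cover its 3′ end, the first of them from position 82293752, where the short form of dystrophin is encoded. The region from that position to the end of the gene has 6.99% of its length and held 17.2% of its tags in WSC and 21.1% in MN. By library, the share was 16.0 to 17.97% in WSC and 16.3 to 25.7% in MN, and the groups overlapped. The overlap came from Chat17 replicate 3 alone (16.3%, 8 of 49 tags), and the next lowest MN library had 19.2%.

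In Utrn (chr10:12101986-12589163, minus strand), exonic tags made up 34.8 to 47.8% of the gene's tags in an MN library and 61.3 to 66.5% in a WSC library. Of the exonic tags, 82.3% in MN and 70.2% in WSC lay in annotated untranslated regions. For Sgcb, 90.2% of 82 tags in MN and 96.6% of 1047 tags in WSC were exonic. On Sgce most tags were intronic, with 9.21% exonic in MN and 13.1% in WSC.

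NOVA binds clusters of the tetramer YCAY, where Y is C or T. The intronic window of 100 nt with most tags is shown for 4 genes of the group, with this tetramer in capitals, counted on the strand of the gene and with overlaps, to show what sequence lay under the tags. The windows were chosen on the tags of MN and WSC together, most of which are from WSC, so their shares in MN and WSC are a description and not a comparison. Of the 36901 consecutive windows of 100 nt along the 9 genes, 78.6% held at least 1 of the tetramers and the median was 1.
Utrn, intron 60, chr10:12171806-12171905, minus strand: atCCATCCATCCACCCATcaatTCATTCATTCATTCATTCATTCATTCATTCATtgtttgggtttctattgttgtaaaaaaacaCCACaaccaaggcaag
Dmd, intron 37, chrX:81155743-81155842, plus strand: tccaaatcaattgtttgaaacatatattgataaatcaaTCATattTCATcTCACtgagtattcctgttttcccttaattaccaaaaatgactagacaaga
Dtnb, intron 4, chr12:3601967-3602066, plus strand: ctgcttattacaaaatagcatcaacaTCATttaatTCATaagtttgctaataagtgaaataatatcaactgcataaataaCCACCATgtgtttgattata
Sgce, intron 5, chr6:4650529-4650628, minus strand: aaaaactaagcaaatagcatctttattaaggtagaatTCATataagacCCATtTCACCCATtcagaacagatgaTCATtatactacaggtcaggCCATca
The Utrn window held 13 tetramers, most of them in a run of 1 repeated form, and 0.08% of the windows of that gene held as many. It had 39 of the 771 tags of Utrn in MN (5.06%, from 7 of 8 libraries) and 96 of 4363 in WSC (2.20%, from 4 of 4). The Dmd window held 3 tetramers, and 24.0% of the windows of the gene held as many or more. It had 6 tags in MN (0.44%) and 212 in WSC (1.86%). The Dtnb window held 4 tetramers with 4 tags in MN and 46 in WSC, and the Sgce window held 6 with 6 and 23 tags. In the genes not shown, such windows held from 2 tetramers (Sgcb) to 7 (Dag1). As many or more were held by 49.0% of the windows of Sgcb and 0.35% of those of Dag1. A match to these letters is a description of the window and not a measured site.

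Tags near the cassette exons, counted from 400 nt before to 400 nt after the exon, were few for most of them. Around Dmd exon 78 lay 7 of the gene's tags in MN (0.51%) and 25 in WSC (0.22%). Around the 27-nt exon of Sgce lay 6 of 76 tags in MN (7.89%) and 26 of 502 in WSC (5.18%), in an interval that makes up 1.14% of the gene. Of those in WSC, 20 were downstream and 6 upstream of the exon. Around the 41-nt exon of Dtnb lay 2 of 173 tags in MN and 49 of 1424 in WSC (3.44%), 37 of the latter from 51 to 100 nt downstream of it. Over the 6663 covered cassette exons in genes with at least 100 WSC tags, the median share was 0.71%, and 10.4% of these exons had a larger share than the Sgce exon.

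Of the 13 exons, the 21-nt exon of Dtna had the most tags around it in both MN and WSC. Within 400 nt lay 925 of 7855 tags in WSC (11.8%) and 81 of 1103 in MN (7.34%), in an interval that is 0.34% of the gene's length. Of the 6663 exons above, 4.08% had a larger share in WSC. In WSC 922 of the tags lay downstream of the exon, 3 upstream and none in it, and in MN 80 lay downstream and 1 upstream. The bin from 101 to 150 nt downstream held 621 tags in WSC and 44 in MN. By library, the share within 400 nt was 11.4 to 13.1% in WSC and 0 to 10.7% in MN, so no MN library reached the WSC libraries. The exonic share over all genes was also lower in every MN library than in any WSC library.

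**Figure D5:**
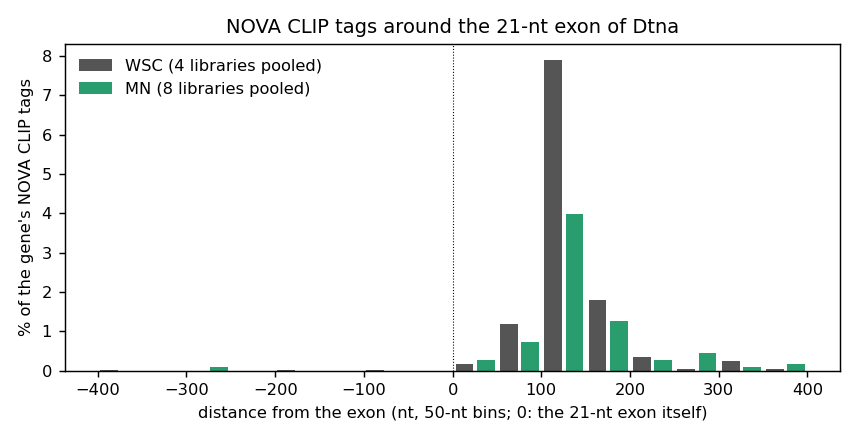
Share of the gene's NOVA CLIP tags, in percent, by distance from the 21-nt exon of Dtna in bins of 50 nt, upstream to the left and downstream to the right, for the pooled WSC (grey) and MN (green) libraries. The highest bar of both lies from 101 to 150 nt downstream, with 7.91% of the tags in WSC and 3.99% in MN.

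This stretch lies inside the alternative last exon of Dtna described above, which is intron in the longer transcripts, so tags in it count as exonic by the annotation. The part of that exon past the 21 nt held 2224 tags in WSC, 28.3% of the gene's tags, and 171 in MN, 15.5%. By library the share was 23.7 to 30.6% in WSC (median 28.6%) and 5.66 to 20% in MN (median 15.8%), and the groups did not overlap. It made up 57.8% of all exonic tags of Dtna in WSC and 46.8% in MN. The exonic share of the tags of all genes was also lower in MN, at 33.4 to 46.4% against 60.9 to 66.2%, without overlap. Tags from the last exon of a short mRNA and from the intron of a longer precursor cannot be told apart here.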

How the data were processed

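RNA-seq was made from 2 WSC samples and NOVA HITS-CLIP from 12. The authors mapped the RNA-seq reads with OLego and counted them with Quantas on mm9, and deposited per gene the read counts and RPKM, and per cassette exon the counts of reads on each inclusion junction, on the skipping junction and in the exon. Totals on genes were 72006019 reads in the male and 65625173 in the female library. The CLIP reads were mapped with Novoalign, reads upstream of GTGTC-like pentamers, which mark mispriming, were removed, and unique tags were deposited with their positions. The labels name mm9, and for 1 library also mm10. All tags lay within the mm9 chromosome lengths.

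From these files, tags were assigned by their midpoint to protein-coding genes of GENCODE vM1 on the sense strand, and tags on several genes were left out. MN and WSC libraries were compared with edgeR 4.0.16 in R 4.3.3 (quasi-likelihood test, TMM, filterByExpr, Benjamini-Hochberg FDR of at most 0.01). Cassette exons with at least 10 junction reads in each library were compared with Fisher's exact test (SciPy 1.17.1) at an FDR of at most 0.1. The SE of an edgeR log2 fold change was computed from that fold change and the F statistic of its test. Fold changes of RPKM used a pseudocount of 0.1. The scripts for both tests were also run on simulated data. The simulated exon reads varied by counting error only, so they cannot show how Fisher's exact test treats other differences between single libraries. The labels call the CLIP libraries of a group biological replicates. The sequences were read from the mm9 reference.

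All 9 genes are named. Exons are named with an inclusion rate from 10% to 90% or a call between the libraries, and pathway genes as the highest, the lowest and the nearest to 1 RPKM of each role, except for an item that is not reported here. Beyond this rule Aqp4, the marker genes given by name, and the 36-nt, 41-nt and 49-nt exons were chosen after their values were seen. The members and the lists were chosen with earlier results of these data known. Alternatives covered scaling, tool, filters, tag class, gene region, lines, libraries and the replicate number as a block.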

Additional observations from a re-analysis of the deposited data

How the results depend on the processing

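Utrn was called higher in MN under all 23 alternatives (0.50 to 0.95 on the log2 scale; edgeR or DESeq2, adjusted p from 3.84e-09 to 0.0045), and Dtna under 20 of 23. Leaving out each library in turn gave 0.68 to 0.81 for Utrn and 0.37 to 0.45 for Dtna, between 2 and 3 members called, and 1888 to 2820 genes called. The third member was Sgce, without Chat6 replicate 1. With the line Chat17 alone, 1 member was called. With exonic tags alone 1089 genes were called and Sgcb turned to 0.25. With intronic tags alone 732 were called, and Dmd (-0.63), Dtna (-0.0452), Dtnb (-0.47) and Sgce (-0.23) turned. Without the filter on low tag numbers 3785 of 16430 genes were called, 1177 higher and 2608 lower in MN against 1276 and 1320 with it, the median of all genes was -0.31, Dmd (-0.0785) and Dtnb (-0.000146) turned, and Sgcb was called lower (-0.62, adjusted p = 0.00694). With the line Chat6 alone Dtnb turned to -0.0205. DESeq2 called 2530 genes and the same number of members, 2. The cause of these changes was not tested.

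With the replicate number as a block, 2154 genes and 2 members were called (Utrn 0.70, Dtna 0.40). Deviations of samples with the same number correlated above 0.1 in 3 of 4 pairs between Chat6 and Chat17 (0.0785 to 0.329) and in 0 of 8 pairs with WSC (-0.197 to 0.0852). Numbers 1 and 2 of both lines have the short barcode and 3 and 4 the long form, and the number was not taken as a pairing with WSC. The block changed no call of a member.

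With junction reads alone 122 cassette exons and 0 members were called, against 400 and 2. Unadjusted p was under 0.05 for 770 exons. The median inclusion rate of the named exons was 63.3%, 61.1 to 65.5% with either library left out, and 77.5% with summed junctions and with the authors' counts, which weigh inclusion reads more by construction. These medians are the values of the Sgce 31-nt form. With the authors' counts the mean rate moved from 10.3% to 39.8% for the Dtna 222-nt and from 16.0% to 44.2% for the Dtnb 90-nt exon. The median level of the 9 genes was 11.1 RPKM, and 11.0 to 11.3 RPKM with either library left out. Without the RPKM filter 1623 genes, and with a pseudocount of 1 190 genes, were past 1.5-fold. At this depth the Dtnb 90-nt exon and the syntrophin CLIP tags allow no firm comparison.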
